A study of Mus musculus with 24 samples.

Results

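The bile acid synthesis enzymes described here are the products of 10 genes, Cyp7a1, Cyp8b1, Hsd3b7, Akr1d1, Cyp27a1, Cyp7b1, Cyp39a1, Cyp2c70, Amacr and Hsd17b4. They are 10 of the 18820 genes measured by microarray in 24 mouse livers. Each gene was read from a probe set that carries its symbol alone, and from the probe set with the highest mean signal where a gene had more than 1. Only Hsd3b7 did. All 10 genes were measured on every array with no filter on dim signals, and their means over the 24 arrays lay between 7.83 and 11.37 on the log2 scale.

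Bile acids are made from cholesterol in hepatocytes. The classical route starts with Cyp7a1, the rate-limiting cholesterol hydroxylase, and Cyp8b1 then adds the hydroxyl group that makes cholic acid in place of chenodeoxycholic acid. The alternative route starts with the side-chain hydroxylase Cyp27a1, whose oxysterol products are hydroxylated further by Cyp7b1. Hsd3b7 and Akr1d1 modify the sterol rings in both routes, and Amacr and Hsd17b4 act on the side chain in peroxisomes. In mice Cyp2c70 turns chenodeoxycholic acid into muricholic acids. The nuclear receptor FXR, encoded by Nr1h4, senses bile acids, induces the repressor gene Nr0b2 (SHP) and lowers transcription of Cyp7a1 and Cyp8b1.

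The 4 groups were FXR-/- mice given OCA, FXR-/- mice given vehicle, wild-type mice given OCA and wild-type mice given vehicle, with 6 livers in each and 1 array per liver. All were male C57BL/6 mice on chow, 9 to 12 weeks old when dosing began. OCA (obeticholic acid, INT-747), a semi-synthetic bile acid that activates FXR, was gavaged every day for 7 days at 10 mg/kg/day in 1% methyl cellulose, and vehicle mice received the methyl cellulose alone. The receptor is missing from the whole animal in FXR-/- mice, so its loss in liver and its loss in other organs, such as the intestine, cannot be told apart. FXR-/- is called KO and wild type WT below.

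The labels were checked first. The probe set of Nr1h4 differed little, with 9.88 to 10.13 in KO vehicle livers and 9.96 to 10.30 in WT vehicle livers (log2 difference −0.17 ± 0.07 SE; limma, Benjamini-Hochberg adjusted p = 0.0935). Where its probes lie relative to the deleted part is unknown from the sources used here, so that value checks nothing. Nr0b2 did separate the genotypes, reaching no more than 4.82 in any KO array and no less than 5.87 in any WT array. Every measured hepatocyte marker stood at 11.52 or more on all arrays. Xist, which marks a second X chromosome, read 2.30 to 3.23 on all arrays, and the Y-linked gene Eif2s3y 7.82 to 8.49. These sex-chromosome genes were picked after their values had been seen. WT vehicle replicate 6 stood apart, with 532 genes more than 2-fold from the mean of its group's other arrays, against 2 to 90 genes for the other 23 arrays. The array names carry a code number of 5, 7 or 9, whose meaning the sources used here do not state. All KO OCA arrays carried 9, and all WT OCA arrays 5. KO vehicle replicates 1 and 2 carried 9 and the rest 7, and WT vehicle replicates 5 and 6 carried 5 and the rest 7.

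Without FXR, the hydroxylases of the classical route, Cyp7a1 and Cyp8b1, stood higher. Those of the alternative route among the 10 genes, Cyp27a1, Cyp7b1 and Cyp39a1, stood lower. Under vehicle 9 of the 10 genes differed between KO and WT livers, 4 higher and 5 lower, at an adjusted p under 0.05. The same test called 27.5% of all genes, 15.4% higher and 12.1% lower. A separate fit to only the genes at or above the median signal, where all 10 enzymes lie, called 46.8% of them. That fit also called 9 of the enzymes, 4 higher and 5 lower. Shares of genes at or above the median signal come from such fits throughout. The median change of the 10 genes was −0.15, beside −0.03 over all genes. In 7 of the 10 the KO and WT vehicle arrays did not overlap, beside 15.1% of all genes. Of these 7, 2 were higher and 5 lower, beside 9.4% and 5.67% of all genes. Without WT vehicle replicate 6 the counts of calls were again 4 higher and 5 lower. In RNA from whole liver, fewer cells of a type and less RNA per cell cannot be told apart.

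**Figure D1:**
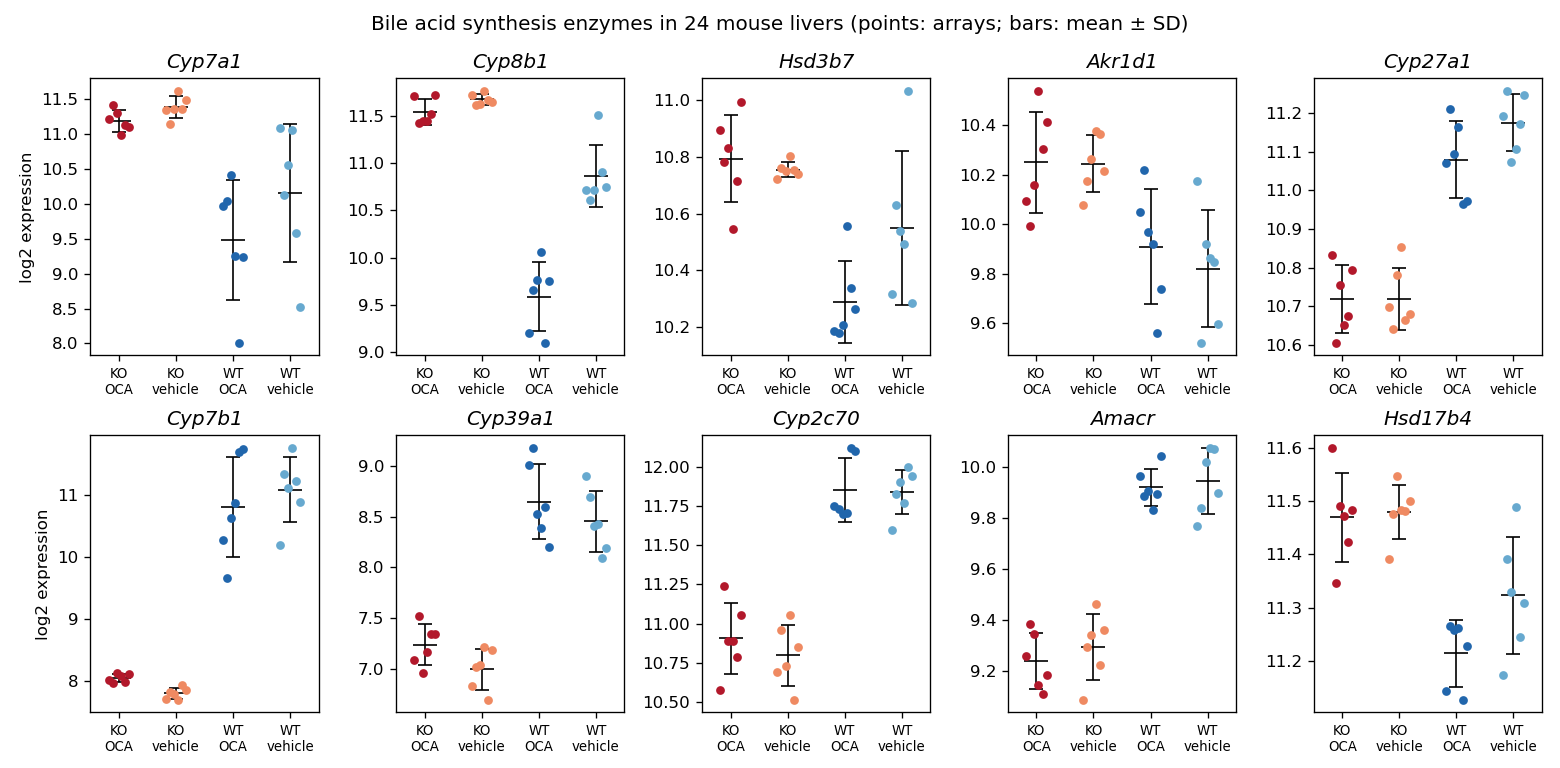
Log2 signal of the 10 enzymes in each liver (points), with group mean and SD (bars), for KO OCA, KO vehicle, WT OCA and WT vehicle livers (n = 6 each). Mean Cyp7a1 and Cyp8b1 are higher in both KO groups than in either WT group, and every KO point of Cyp27a1, Cyp7b1, Cyp39a1, Cyp2c70 and Amacr lies below every WT point.

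Cyp7a1, which sets the rate of the classical route, ranged from 11.13 to 11.61 with a median of 11.35 in KO vehicle livers. In WT vehicle livers it ranged between 8.52 and 11.08 with a median of 10.34. Every KO array lay above every WT array, but the closest pair, at 11.13 and 11.08, nearly touched, and the WT livers were widely scattered. The gene rose by 1.23 ± 0.35 (SE), or 2.34-fold, in KO livers (adjusted p = 0.0091). The 2 WT livers with array code number 5 were the lowest, at 9.58 (replicate 5) and 8.52 (replicate 6). Within number 7, which holds 4 KO and 4 WT vehicle arrays, the increase was 0.75 (adjusted p = 0.0170), and with the number as a block it was 0.75 with no call (adjusted p = 0.122). Without WT replicate 6 it was 0.90 (adjusted p = 0.0241).

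Cyp8b1, the cholic acid enzyme, ranged from 11.62 to 11.77 in KO vehicle livers (median 11.66) and between 10.62 and 11.51 in WT vehicle livers (median 10.73). The KO livers were tightly grouped, and only WT replicate 4 came near them. The gene rose by 0.81 ± 0.14, or 1.75-fold (adjusted p = 6.81e-05), and by 0.79 within number 7 (adjusted p = 0.00744).

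Cyp8b1 and Cyp2c70 were the enzymes among those with an entry in the RefSeq promoter table whose promoter held the letters CAAAGTCCA, a motif of the hepatocyte receptor HNF4A. Entries were matched for 5 of the 10 genes, which also include Cyp27a1, Hsd3b7 and Akr1d1. The 250 bases before the transcription start listed there were searched on both strands. For Cyp27a1 these bases lie within the annotated gene, and for Akr1d1 they lie partly within it. For these genes the search thus does not describe the bases before the gene's first base. The motif is in 0.384% of all 32851 promoters of that length in the table. The Cyp8b1 and Cyp2c70 sequences are shown because these genes moved in opposite directions in KO livers while sharing it, at −67 and −64 from the start. Capitals mark it, on genome build GRCm38.p6, with Cyp8b1 at chr9:121916306-121916555 and Cyp2c70 at chr19:40187287-40187536, both read 5′ to 3′ on the minus strand.
Cyp8b1: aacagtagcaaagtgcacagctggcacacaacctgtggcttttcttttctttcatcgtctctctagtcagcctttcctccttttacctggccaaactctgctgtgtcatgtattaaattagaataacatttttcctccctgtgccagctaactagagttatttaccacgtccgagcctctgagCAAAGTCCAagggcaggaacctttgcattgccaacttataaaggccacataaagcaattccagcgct
Cyp2c70: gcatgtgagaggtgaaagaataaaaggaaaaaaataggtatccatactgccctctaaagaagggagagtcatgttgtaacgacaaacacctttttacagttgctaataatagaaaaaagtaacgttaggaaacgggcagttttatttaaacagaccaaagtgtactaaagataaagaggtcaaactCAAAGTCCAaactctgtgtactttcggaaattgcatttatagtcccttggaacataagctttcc
The shorter letters CAAGG, the core of the motif of NR5A2 (LRH-1), were found at −60 in Cyp8b1, where they overlap the last bases of the longer motif, and at −20 on the opposite strand in Cyp2c70. Hsd3b7 (at −60) and Akr1d1 (at −213) held these letters too, so that 4 of the 5 promoters did, beside 46.0% of all promoters. A match of letters is a description and not a bound site.

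The ring-modifying enzymes differed little under vehicle. Akr1d1, the reductase of the sterol double bond, was 10.08 to 10.37 in KO livers (median 10.24) and 9.52 to 10.18 in WT livers (median 9.85). The groups overlapped at a single WT liver, replicate 1, and the gene rose by 0.42 ± 0.11, or 1.34-fold (adjusted p = 0.00534). Hsd3b7, the sterol dehydrogenase of both routes, was 10.72 to 10.80 in KO livers and 10.28 to 11.03 in WT livers. The narrow KO range fell inside the wide WT range. Its difference was 0.21 ± 0.10, with no call (adjusted p = 0.120), and it was called without WT replicate 5, the highest liver (0.30, adjusted p = 0.00558), and within number 7 (0.27, adjusted p = 0.0303).

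The hydroxylases of the alternative route among the 10 genes all fell. Cyp7b1, the oxysterol hydroxylase, had the largest change of the 10 genes. It was 7.70 to 7.95 in KO vehicle livers (median 7.80) and 10.19 to 11.76 in WT vehicle livers (median 11.18), so that the groups were more than 2 log2 units apart at their closest. The fall was 3.29 ± 0.26 on the log2 scale, or 9.76-fold (adjusted p = 2.73e-10), and within number 7 the change was −3.28. Cyp27a1, the enzyme before it, was 10.64 to 10.85 in KO livers (median 10.69) and 11.07 to 11.26 in WT livers (median 11.18). The groups were separate but close, a fall of 0.45 ± 0.06, or 1.37-fold (adjusted p = 1.05e-06). Cyp39a1, which hydroxylates the oxysterol made by Cyp46a1, was 6.69 to 7.21 in KO livers (median 7.02) and 8.09 to 8.90 in WT livers (median 8.42). It fell by 1.46 ± 0.15, or 2.75-fold (adjusted p = 3.74e-08), with no overlap.

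Cyp2c70, the muricholic acid enzyme, was 10.51 to 11.05 in KO vehicle livers (median 10.79) and 11.60 to 12.00 in WT vehicle livers (median 11.87). All KO livers lay below all WT livers, and the fall was 1.05 ± 0.11, or 2.06-fold (adjusted p = 3.79e-08). The 2 peroxisomal side-chain enzymes moved in opposite directions. Amacr, the racemase, was 9.09 to 9.46 in KO livers (median 9.32) and 9.77 to 10.07 in WT livers (median 9.96), a fall of 0.65 ± 0.07, or 1.57-fold (adjusted p = 6.08e-08). Hsd17b4, the bifunctional enzyme after it, was 11.39 to 11.55 in KO livers and 11.17 to 11.49 in WT livers. These ranges overlapped, and the rise of 0.16 ± 0.06, or 1.12-fold (adjusted p = 0.0371), had the largest adjusted p of the 9 calls. It was lost in 8 of 12 fits that left out an array and within number 7 (0.16, adjusted p = 0.180), and it turned to −0.01 (adjusted p = 0.899) when arrays were centred on the median of the named genes. That centring, added after the data had been seen, moved the median of all genes to −0.20, and 2 of the enzymes were then called higher and 5 lower, beside 9.44% and 44.4% of all genes, with Akr1d1 at 0.26 (adjusted p = 0.0544) no longer called. The count of 5 lower of 10 is then near the share over all genes.

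Under OCA the contrast between the genotypes covered all 10 genes, 5 higher and 5 lower in KO livers, beside 30.7% of all genes (17.4% higher, 13.3% lower) and 52.2% of genes at or above the median signal. The arrays of KO OCA and WT OCA livers did not overlap for 8 of the 10, beside 18.4% of all genes. Of these 8, 3 were higher and 5 lower, beside 10.9% and 7.48% of all genes. The means compared come from 12 livers other than those compared under vehicle. Both comparisons share the spread estimated over all 4 groups. Centred on the median of the named genes, 3 were called higher and 5 lower, beside 9.98% and 49% of all genes, so that the count of lower enzymes is near the share over all genes. The median of all genes was then −0.21 in place of −0.02, and Akr1d1 (0.15) and Hsd17b4 (0.07) were not called.

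Cyp8b1 had the smallest p of the 10 genes under OCA, with 11.43 to 11.73 in KO OCA livers (median 11.49) and 9.09 to 10.05 in WT OCA livers (median 9.70). It was 3.90-fold higher in KO livers, a log2 difference of 1.96 ± 0.14 (adjusted p = 4.34e-11). Cyp7a1 was 10.98 to 11.42 in KO OCA livers (median 11.17) and 8.01 to 10.41 in WT OCA livers (median 9.61). The ranges were clearly apart, and the gene was 3.25-fold higher in KO livers (1.70 ± 0.35, adjusted p = 0.000417). Hsd3b7 passed here, with 10.55 to 11.00 in KO OCA livers and 10.18 to 10.56 in WT OCA livers (0.51 ± 0.10, adjusted p = 0.000211), while its second, dimmer probe set did not (0.09, adjusted p = 0.685). Hsd17b4 (0.26 ± 0.06, adjusted p = 0.000830) and Akr1d1 (0.34 ± 0.11, adjusted p = 0.0216) were higher as well, and the Akr1d1 call was lost in 4 of 12 fits without an array.

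The genes that fell under vehicle had values of the same sign under OCA. Cyp7b1 was 7.97 to 8.13 in KO OCA livers (median 8.05) and 9.67 to 11.74 in WT OCA livers (median 10.75), 6.79-fold lower in KO livers (−2.76 ± 0.26, adjusted p = 5.21e-09). Cyp39a1 was 6.96 to 7.52 in KO OCA livers and 8.20 to 9.18 in WT OCA livers (−1.41 ± 0.15, adjusted p = 5.50e-08). Cyp2c70 was 10.58 to 11.24 in KO OCA livers and 11.70 to 12.12 in WT OCA livers (−0.95 ± 0.11, adjusted p = 1.59e-07). These genes had no overlap between genotypes. Amacr (−0.68 ± 0.07, adjusted p = 2.51e-08) and Cyp27a1 (−0.36 ± 0.06, adjusted p = 2.49e-05) were also lower in KO livers without overlap.

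**Figure D2:**
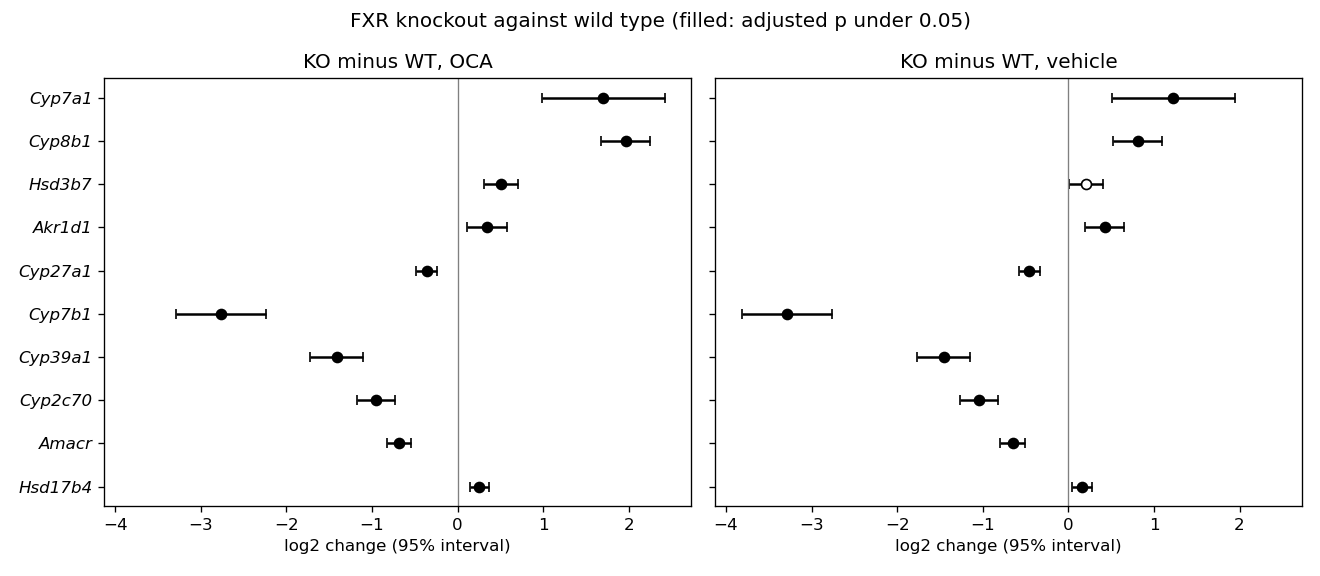
Log2 change, KO minus WT, of the 10 enzymes under OCA (left) and under vehicle (right), with 95% intervals from limma. Filled points passed an adjusted p of 0.05, and Hsd3b7 under vehicle is the open point.

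No array code number holds both OCA groups, so number and genotype cannot be told apart among OCA livers without the vehicle arrays. With the number as a block, linked through those vehicle arrays, 4 of the 10 genes were called, beside 12.4% of all genes. They were Cyp8b1 (1.91, adjusted p = 0.000549), Cyp7b1 (−2.76, adjusted p = 0.00468), Cyp39a1 (−1.77, adjusted p = 0.000928) and Cyp2c70 (−0.79, adjusted p = 0.0439). Of the 6 genes not called in that fit, Cyp7a1 stood at 0.26 (adjusted p = 0.855) and Cyp27a1 at −0.23 (adjusted p = 0.304), closer to 0 than without the block. Hsd3b7 at 0.69 (adjusted p = 0.0521), Akr1d1 at 0.37 (adjusted p = 0.412) and Hsd17b4 at 0.26 (adjusted p = 0.225) had changes at least as large as without it, and Amacr stood at −0.47 (adjusted p = 0.0565). Under vehicle the same block gave 7 calls, 2 higher and 5 lower, beside 22.7% of all genes, with Cyp7a1 (0.75, adjusted p = 0.122) and Hsd17b4 (0.16, adjusted p = 0.105) lost. Among vehicle livers within number 7, the changes of the other called genes were −0.41 for Cyp27a1, −1.58 for Cyp39a1, −0.99 for Cyp2c70, −0.58 for Amacr and 0.43 for Akr1d1, all called. For the OCA livers, the block with WT vehicle replicate 6 left out gave 2 calls higher and 2 lower, beside 9.74% of all genes. The genes called were thus not all the same as with the block alone. The part of the number in the Cyp7a1 values was not tested beyond these fits.

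**Figure D3:**
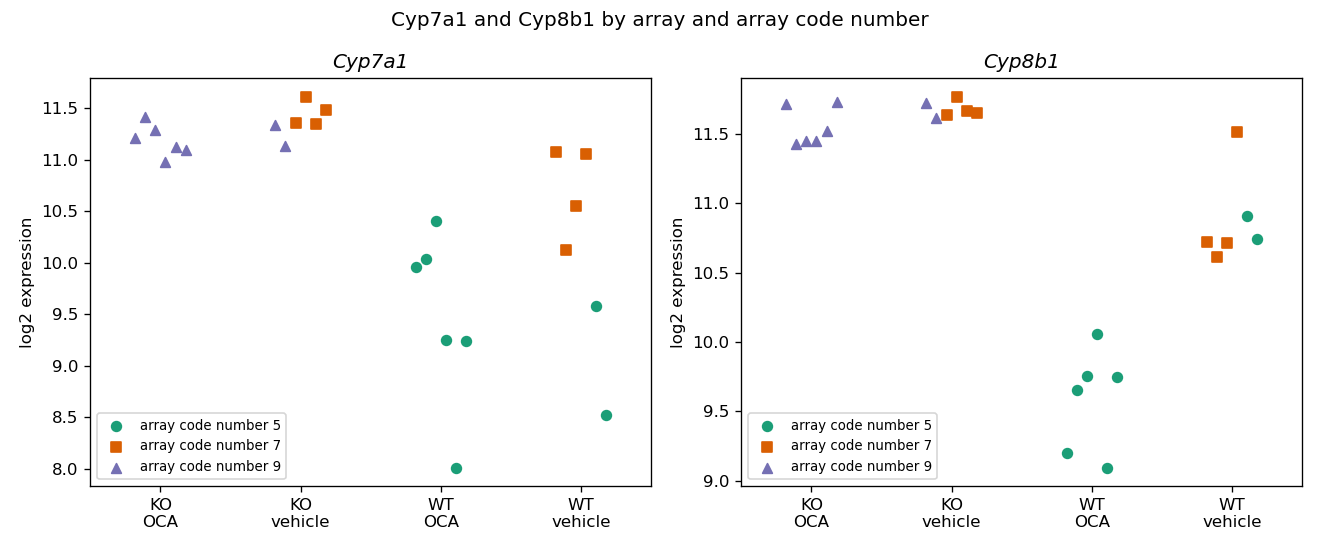
Log2 signal of Cyp7a1 (left) and Cyp8b1 (right) by liver, for KO OCA, KO vehicle, WT OCA and WT vehicle groups, with the array code number shown by symbol. For Cyp7a1 the WT vehicle arrays of number 5 read 9.58 and 8.52, below the WT vehicle arrays of number 7 at 10.12 to 11.08, while for Cyp8b1 those numbers overlap.

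OCA lowered Cyp8b1 in WT liver and no other enzyme of the 10 passed. Cyp8b1 was 9.09 to 10.05 in WT OCA livers (median 9.70) and 10.62 to 11.51 in WT vehicle livers (median 10.73). Even the highest OCA liver lay below the lowest vehicle liver. With a fall of 1.28 ± 0.14, or 2.43-fold (adjusted p = 3.74e-05), it had the smallest p of all 18820 genes, of which 0.0691% were called (0.0372% lower) and 0.457% had no overlap between groups (0.266% lower). The call held in 12 of 12 fits that left out an array, with changes of −1.38 to −1.16. Within number 5, with 6 OCA and 2 vehicle arrays, the change was −1.24 without a call (adjusted p = 0.155).

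Cyp7a1 was 8.01 to 10.41 in WT OCA livers (median 9.61) and 8.52 to 11.08 in WT vehicle livers (median 10.34). The ranges overlapped over most of their length. The difference of −0.67 ± 0.35 did not pass (adjusted p = 0.568), and its 95% interval ran between −1.38 and 0.05, which covers both no change and a fall as large as that of Cyp8b1. Over 12 fits that left out an array it ran between −0.99 and −0.37, with no call. The first came without WT vehicle replicate 6 (adjusted p = 0.212), the second without WT OCA replicate 5, the lowest OCA liver. Within number 5 it was 0.44 (adjusted p = 0.805). In that vehicle liver Cyp7a1 lay 1.96 below the mean of the other 5, whereas the other 9 enzymes lay between 0.32 below and 0.12 above it. The same liver was higher by a median of 1.85 in 9 acute phase genes and by 0.81 in 7 Kupffer cell markers. WT OCA replicates 5 and 6 also read above the rest of their group in every acute phase gene but Socs3. Lcn2 was 12.09 and 10.91 there, against 7.51 to 9.03, and Cyp7a1 was 8.01 and 9.24. The part of these genes in the Cyp7a1 values was not tested.

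The other enzymes of WT liver had smaller differences with OCA. Hsd3b7 was 10.18 to 10.56 in WT OCA livers and 10.28 to 11.03 in WT vehicle livers (−0.26 ± 0.10, adjusted p = 0.369). Hsd17b4 stood at −0.11 ± 0.06 (adjusted p = 0.564), and Cyp7b1, with wide and overlapping ranges, at −0.28 ± 0.26 (adjusted p = 0.804). The remaining 5 lay between −0.10 and 0.20 with adjusted p of at least 0.653. The 95% interval was narrowest for Hsd17b4 (−0.22 to 0.01) and widest, after Cyp7a1, for Cyp7b1 (−0.81 to 0.25).

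In KO liver OCA gave no call among the 10 enzymes, where 0.0159% of all genes passed. At an unadjusted p under 0.05 there were 0 of the 10 and 968 of all genes. Unless said otherwise, the p-values, SEs and intervals here use the spread shared by all 4 groups. They do not measure the variation of KO livers alone. For Cyp7a1 the SD was 0.16 in both KO groups, 0.98 in WT vehicle livers and 0.86 in WT OCA livers. Cyp8b1 was 11.43 to 11.73 in KO OCA livers and 11.62 to 11.77 in KO vehicle livers (−0.13 ± 0.14, 95% interval −0.42 to 0.16). Cyp7a1 was 10.98 to 11.42 in KO OCA livers and 11.13 to 11.61 in KO vehicle livers (−0.19 ± 0.35). Both pairs of ranges overlapped. Cyp7b1 differed in layout, with 7.97 to 8.13 in KO OCA livers and 7.70 to 7.95 in KO vehicle livers. All OCA arrays lay above all vehicle arrays, a layout seen in 0.303% of all genes (0.654% in either direction), yet with the spread shared by all 4 groups the difference of 0.25 ± 0.26 did not pass (adjusted p = 0.996). With only the 2 KO groups in the fit it did not pass either (adjusted p = 0.253), and with the array code letter as a block it was 0.07.

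The difference of the OCA effect, KO minus WT, was the test of whether the response depends on the receptor. It passed for 0 of the 10 genes and for 0% of all genes (limma, adjusted p under 0.05), with 2 of the 10 and 1140 of all genes at an unadjusted p under 0.05. Cyp8b1 had the smallest p of all genes, with a difference of 1.15 ± 0.20 (95% interval 0.75 to 1.56; limma adjusted p = 0.0841). It was called with array weights (1.17, adjusted p = 0.0253) and in 5 of 24 fits without an array. The other gene was Hsd3b7, at 0.30 ± 0.14 (adjusted p = 0.805). For Cyp7a1 the difference was 0.48 ± 0.49, with an interval of −0.54 to 1.49.

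**Figure D4:**
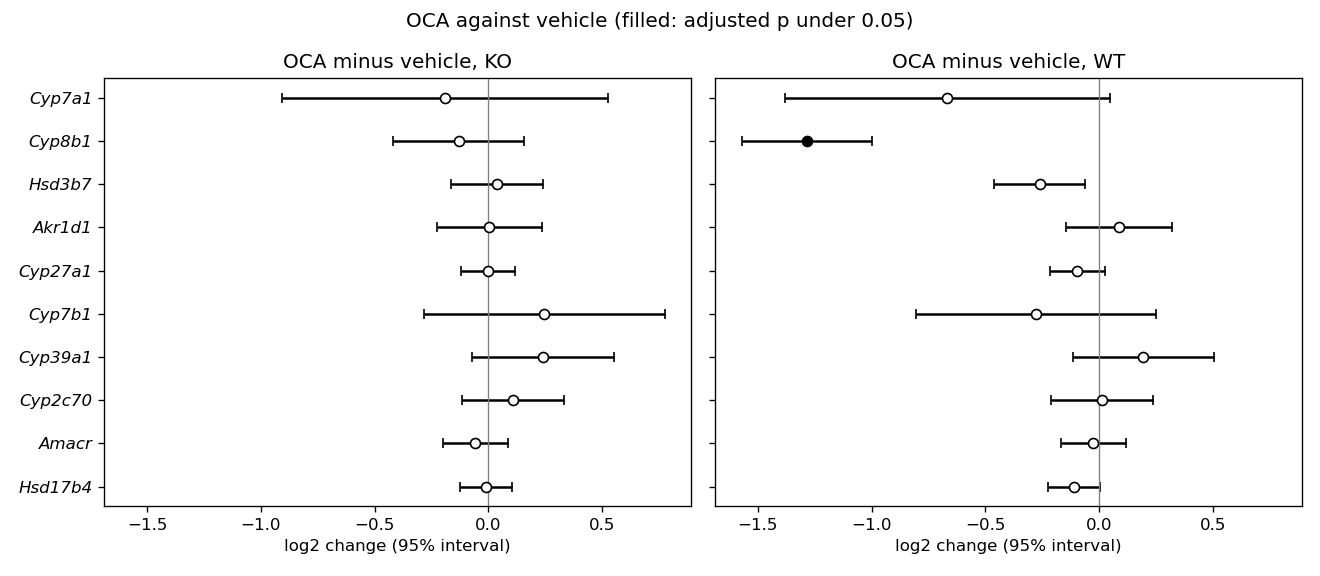
Log2 change, OCA minus vehicle, of the 10 enzymes in KO liver (left) and WT liver (right), with 95% intervals from limma. Cyp8b1 in WT liver, at −1.28, is the only filled point, which marks an adjusted p under 0.05.

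WT livers also differed more among themselves than KO livers did for several of these genes. The SD of Cyp7a1 was 0.16 in KO vehicle livers and 0.98 in WT vehicle livers, a ratio of 6.15. For Cyp8b1 the SDs were 0.06 in KO and 0.33 in WT vehicle livers, and for Cyp7b1 0.09 and 0.53. For Hsd3b7 they were 0.03 in KO and 0.27 in WT vehicle livers. The ratios of these 4 genes lay above the 98th percentile of all genes, whose median ratio was 1.37, and they are given as a description. Leaving out single arrays here was chosen after seeing the data. The Cyp8b1 ratio of 5.73 rested on WT replicate 4, without which the WT SD was 0.11 and the ratio 1.85, beside a median of 1.37. Single WT livers also carried part of the other ratios, which were 4.00 for Cyp7a1 without replicate 6, 3.57 for Cyp7b1 without replicate 1 and 5.48 for Hsd3b7 without replicate 5. With all livers these stood at 6.15, 5.81 and 10.1, and without single KO livers they reached 8.35, 8.10 and 17.8. Under OCA the ratio was 11.6 for Cyp7b1 (SD 0.07 in KO and 0.81 in WT livers), 5.53 for Cyp7a1 (3.33 without WT OCA replicate 5) and 2.66 for Cyp8b1, beside a median of 1.15, while Hsd3b7 stood at 0.93 (0.43 without WT OCA replicate 4). Cyp27a1, Cyp2c70 and Amacr had ratios between 0.66 and 1.12 under either treatment.

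Array by array, the deviation of Cyp7a1 from its group mean was most like that of Ttc7, Marveld1 and Cep68 (Pearson r = 0.889 for each over 24 arrays). Over the same 24 arrays the genes most like Cyp7b1 were Derl3 (0.892), Capn8 (0.881) and Bmpr1a (0.875), and those most like Cyp8b1 were Cmbl (0.754), Polr1b (0.738) and Ccnd3 (0.710). Without WT vehicle replicate 6, over 23 arrays, the list for Cyp7a1 was Ldb1 (0.914), Marveld1 (0.890) and Zfyve9 (0.864), that for Cyp7b1 held the same 3 genes, and in that for Cyp8b1 Zfp174 (0.733) stood in place of Ccnd3. Predicted genes and the enzymes themselves were left out of the ranking, and only the highest positive correlations were sought. The WT livers, which varied more than KO livers in these 3 genes, weigh most in the values. These values describe likeness only, the arrays share their code numbers, and no test was made.

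Other genes of the pathway carry its intermediates and complete the side chain. Of 11 further measured genes of the pathway, 5 fell and 0 rose in KO livers under vehicle, with a median change of −0.15. Over all genes 12.1% were called lower and 15.4% higher. Of genes at or above the median signal, where most of the 11 lie, 46.8% were called, and 5 of 11 is near that share. The acyl-CoA synthetase genes Slc27a2 and Slc27a5 (the bile acid ligase) fell by 0.29 and 0.33 on the log2 scale. Scp2, the sterol carrier and thiolase of the side chain, fell by 0.34 (adjusted p = 6.45e-05). Cyp46a1 fell by 0.74 (adjusted p = 0.00125), with 4.49 to 5.13 in KO vehicle livers and 5.11 to 5.95 in WT vehicle livers. Under OCA 7 of the 11 were lower in KO livers and 0 higher, beside 13.3% and 17.4% of all genes. Of genes at or above the median signal 52.2% were called there. OCA changed 0 of the 11 in WT liver (limma), where 0 also had an unadjusted p under 0.05.

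Of 14 measured regulators and receptor targets 9 fell and 0 rose in KO livers under vehicle, with a median of −0.43. Over all genes 12.1% were called lower and 15.4% higher, and 46.8% of genes at or above the median signal were called. Nr0b2 fell by 2.62 (adjusted p = 1.21e-08) and Abcb11, the bile salt export pump, by 1.68 (adjusted p = 3.79e-11). Slc51b, a subunit of the basolateral exporter, fell by 1.11 and Hnf4a, an activator of hepatocyte genes, by 0.52 (adjusted p = 2.95e-05). With OCA 2 of the 14 rose in WT liver, beside 0.0319% of all genes. Nr0b2 was 7.31 to 8.62 in WT OCA livers and 5.87 to 7.30 in WT vehicle livers (1.41 ± 0.25, adjusted p = 0.0244), a call that was lost in 9 of 12 fits without an array. Slc51b was 5.23 to 6.12 in WT OCA livers and 4.42 to 4.96 in WT vehicle livers (1.02 ± 0.13, adjusted p = 0.000699). In KO liver neither passed, with Nr0b2 at 0.20 ± 0.25 and Slc51b at 0.13 ± 0.13. Of 8 genes of cholesterol supply, Hmgcs1 and Sqle, which make sterols, rose in KO livers under vehicle (1.18 and 0.61), and the lipoprotein receptor Scarb1 fell by 0.41.

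**Figure D5:**
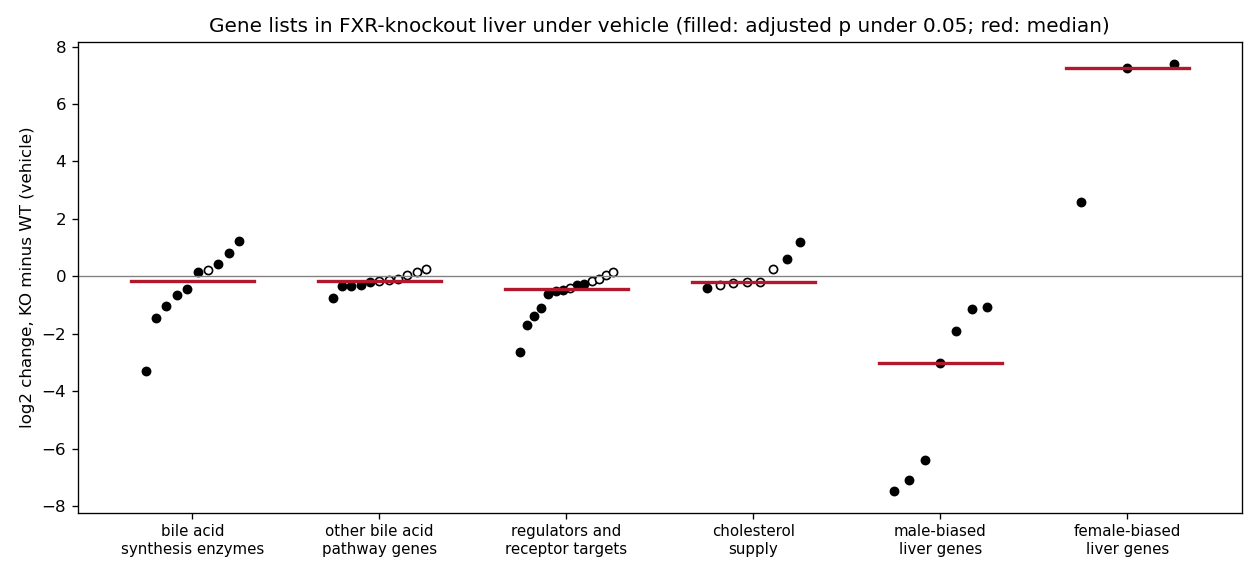
Log2 change, KO minus WT under vehicle, of the 10 enzymes and of other gene lists. Each point is a gene, filled where the adjusted p was under 0.05, and red lines are medians, which run between −3.01 for the male-biased and 7.25 for the female-biased liver genes.

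Sex-biased liver genes had the largest changes of the lists measured. Cyp7b1 itself is known to be expressed more in male than in female mouse liver. Under vehicle 7 of 7 male-biased genes fell in KO livers, beside 12.1% of all genes, with a median of −3.01. Among them were the elongase gene Elovl3 (−7.48) and the transporter gene Slco1a1 (−6.40). All 3 measured female-biased genes rose, beside 15.4% of all genes. They were Cyp2b9 (7.40), Cyp2b13 (7.25) and Cyp17a1 (2.59). The log2 of the summed linear signal of the male-biased list was 12.33 to 12.99 in KO vehicle livers and 14.10 to 14.55 in WT vehicle livers. That of the female-biased list was 12.83 to 12.94 in KO and 8.22 to 9.48 in WT vehicle livers. Their part in the Cyp7b1 result was not tested. OCA gave 0 calls in either list in WT liver, and 0 of their genes had an unadjusted p under 0.05 there. In KO liver OCA also gave 0 calls, but 5 of 7 male-biased genes (list median −0.37) and 1 of 3 female-biased genes (list median −0.02) had an unadjusted p under 0.05, as did 968 of all 18820 genes.

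Some markers of cell types and liver zones differed with genotype too. Over all genes 27.5% were called under vehicle (15.4% higher, 12.1% lower) and 30.7% under OCA (17.4% higher, 13.3% lower). Of genes at or above the median signal 46.8% were called under vehicle and 52.2% under OCA. The counts of markers were not tested against these shares. Of 10 hepatocyte markers 2 fell in KO livers under vehicle, Cps1 (−0.30) and Tdo2 (−0.52), and 9 under OCA. The log2 of their summed linear signal was 15.96 to 16.11 over all KO and 16.14 to 16.24 over all WT livers. All 4 periportal genes fell, Hal by 1.53 and Pck1 by 1.23, and of 8 pericentral genes 3 rose and 2 fell. Of 7 Kupffer cell markers 4 rose, Vsig4 by 1.01. The log2 of their summed signal was 11.48 to 11.76 in KO vehicle livers and 10.68 to 11.54 in WT vehicle livers. All 5 stellate cell markers rose, Col1a1 by 1.54. The log2 of their summed signal was 11.75 to 12.00 in KO vehicle livers and 10.93 to 11.39 in WT vehicle livers. Of 9 acute phase genes 3 rose, Orm2 by 3.43, and 2 fell. Of other cell types, 1 of 5 sinusoidal endothelial markers fell, and 2 of 4 cholangiocyte, 1 of 4 adipocyte and 1 of 4 blood cell markers rose. These counts of 1 are near the 27.5% called over all genes. The hepatocyte and sinusoidal endothelial markers all lie above the median signal, and their counts under vehicle are below the 46.8% called there. The part of these cells and proteins in the enzyme results was not tested. Cyp7a1 is known to follow the time of day, and of 10 clock genes 0 were called between genotypes under vehicle (0 at an unadjusted p under 0.05), against 2 higher and 4 lower in KO livers under OCA. Scatter among WT vehicle livers limits the vehicle test. Replicates 5 and 6, the lowest of them in Cyp7a1, read 7.56 and 7.45 in Tef, against 8.33 to 8.61 in the others. Per3 read 6.59 and 5.47, against 7.56 to 8.49. Nr1d2, Per2, Hlf, Arntl and Clock also set both livers apart, while Per1, Npas2 and Ciart did not. The part of the clock genes in the Cyp7a1 values was not tested.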

How the data were processed

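Liver RNA of 24 mice was hybridised to 1 array each. The authors deposited log2 values made with RMA, per the submitters' processing notes; the sources used here state neither the build nor the later steps. The table held 35556 probe sets, of which 21218 carried 1 gene symbol, 1881 several and 12457 were not listed in the probe annotation and stay unnamed here. Symbols of 21185 were updated by gene number through RefSeq (GRCm38.p6). The probe set with the highest mean per symbol gave 18820 genes. Values ran between 0.87 and 13.60 and array medians between 4.57 and 4.65. No count of reads underlies them, and the number of arrays limits the precision.

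A model of 4 group means was fitted to all genes with limma 3.58.1 (lmFit, eBayes; R 4.3.3), with p-values adjusted by Benjamini-Hochberg over all 18820 genes and calls at an adjusted p under 0.05. SE and 95% intervals come from that fit, whose spread for each gene is shared by the 4 groups. The fit was tested on simulated data. In all, 15 alternatives were planned and 2 were added later. Replicate numbers did not pair the mice, whose identifiers differ: deviations of same-numbered arrays correlated at −0.08 to 0.17 over 36 pairs. The enzymes, gene lists and tests were chosen with earlier results of these data known. Named beside the 10 enzymes were Nr1h4, Nr0b2, Slc51b, up to 4 genes per list with the smallest p, and the 3 genes most like Cyp7a1, Cyp8b1 and Cyp7b1; others are said to be chosen later. Promoters are RefSeq's, 250 bases before the listed transcription start.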

Additional observations from a re-analysis of the deposited data

Results flagged for a closer look

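Of 40 sets of 6 livers examined, 1 per enzyme and group, 1 held a liver far from the others. Cyp8b1 read 11.51 in WT vehicle replicate 4, where the next highest WT vehicle liver read 10.91, and that gap took up 67.3% of the group's whole range. Chance marks about 1 in 20 such sets. Without that liver the KO increase of Cyp8b1 under vehicle was 0.94 and the OCA change in WT liver −1.16, both still called.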

How the results depend on the processing

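Counts of enzymes called under the alternatives are set beside 9 (KO against WT under vehicle), 10 (under OCA), 1 (OCA in WT), 0 (OCA in KO) and 0 (difference of the OCA effect). For KO against WT under OCA the count was 4 with the array number taken as a block (1 higher, 3 lower), beside 12.4% of all genes. With that block and without WT vehicle replicate 6 it was again 4, but 2 higher and 2 lower, beside 9.74% of all genes. The called genes were therefore not the same 4. For KO against WT under vehicle these fits gave 7 and 8. For OCA in WT liver it was 0 within number 5 and 2, Cyp8b1 and Hsd3b7 (−0.75, adjusted p = 0.0220), with the number block and without WT vehicle replicate 6. For the difference it was 1 with array weights. Leaving out each array in turn gave 8 to 9, 9 to 10, 1 to 1, 0 to 0 and 0 to 1 enzymes; the call for the difference came with Cyp8b1 without WT vehicle replicate 2, 4 or 6, KO OCA replicate 4 or WT OCA replicate 4. With the replicate number as a replicate block the counts were 9, 10, 1, 0 and 0. The sign of a called value turned in 1 case, Hsd17b4 in KO livers under vehicle, at −0.009 with arrays centred on the median of the named genes. Of 271 member values under alternatives for KO against WT under vehicle, 250 kept their direction and side of the threshold, and of 261 under OCA 240. Over all genes the calls under vehicle were 5174 and with that centring 10130. Under OCA they were 5780, 11099 with that centring, 2334 with the number block and 1834 with it and without replicate 6. For OCA in WT liver they were 13 and, under the alternatives, 2 to 667, the highest with the number block. For OCA in KO liver they were 3 and 0 to 11, and for the difference 0 and 0 to 34. The causes were not tested. The number of arrays limits the precision, and for Cyp7a1 with OCA in WT liver the 95% interval ran between −1.38 and 0.05.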
